A study of Mus musculus with 16 samples.

Results

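MicroRNA (miRNA) levels were compared between RAW264.7 cells given extracellular vesicles (EVs) from the serum of concanavalin A (Con A) treated mice and RAW264.7 cells given EVs that saline-treated RAW264.7 cells had shed into culture medium. The 6 libraries of the comparison, 3 a group, were chosen by their labels and belong to a series of 16. The first group is called serum Con A recipients and the second RAW saline recipients. RAW264.7 is a macrophage line that the labels give as male BALB/c. EVs are membrane-enclosed particles that cells release. Con A, a lectin of jack beans, stimulates T cells, and its injection is a mouse model of immune-mediated hepatitis. The serum EVs came from female BALB/c mice aged 8-9 weeks and bled 9 h after an intravenous dose of 15 mg/kg Con A. The RAW saline EVs came from the medium of cultures kept for 24 h with saline. Recipients of either kind were incubated for 8 h with 6e9 particles per mL in medium free of other EVs and then for 16 h with Con A. The other cell libraries were 3 of cells given EVs from Con A-treated RAW264.7 cultures and 3 of cells given PBS in place of EVs, and they had Con A as well. The 4 remaining libraries were EV preparations, 1 of each kind.

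No recipients of serum EVs from saline-treated mice were measured, so the source of the EVs (serum or a cell culture) and the Con A treatment of that source cannot be told apart in this comparison. Whole wells were lysed, so miRNA carried in by EVs and miRNA made by the cells cannot be told apart, nor can fewer cells of a kind and less RNA per cell. Whether libraries within a group stem from separate cultures is not in the labels, so the p-values measure the spread between these libraries, which may be technical.

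A miRNA gene is transcribed into a hairpin, from which the enzymes Drosha and Dicer cut a short duplex. One strand of the duplex, from the 5p or the 3p arm, is kept as the guide in an Argonaute protein, and the other is usually degraded. The guide pairs with messenger RNAs mainly through its seed and lowers their translation and stability. In macrophages miR-155 and miR-146a are induced by inflammatory signals through NF-κB, miR-155 mostly promoting and miR-146a mostly restraining the response.

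The miRNAs on which the results turn are printed here from RefSeq, 5′ to 3′, with the seed, bases 2 to 8, in capitals. The first set holds miRNAs abundant in serum Con A EVs.
miR-148a-3p: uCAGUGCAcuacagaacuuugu
miR-451a: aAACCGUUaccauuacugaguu
miR-192-5p: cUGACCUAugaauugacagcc
miR-194-5p: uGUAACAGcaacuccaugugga
miR-22-3p: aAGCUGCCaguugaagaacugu
The second set holds miRNAs present in this cell line that were lower in serum Con A recipients, among them miR-7a-5p and miR-7b-5p, which share a seed and are identical at 22 of 23 compared positions.
miR-155-5p: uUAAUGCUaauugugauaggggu
miR-146a-5p: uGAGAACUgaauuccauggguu
miR-7a-5p: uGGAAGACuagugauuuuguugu
miR-7b-5p: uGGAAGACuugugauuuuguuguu
The third set holds members of a cluster on chromosome X and, for comparison, miR-16-5p, which comes from other chromosomes and shares its seed with miR-322-5p.
miR-322-5p: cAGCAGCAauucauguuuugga
miR-16-5p: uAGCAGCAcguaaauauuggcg
miR-503-5p: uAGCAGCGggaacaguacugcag
miR-351-5p: uCCCUGAGgagcccuuugagccug
miR-542-3p: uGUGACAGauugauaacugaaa
miR-450a-5p: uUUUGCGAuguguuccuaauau
miR-450b-5p: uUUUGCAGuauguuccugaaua
The fourth set holds less abundant hairpin arms that were higher in serum Con A recipients. Those of let-7a-1 and let-7c-2 are the same sequence, so reads of one cannot be told from reads of the other.
let-7c-1-3p: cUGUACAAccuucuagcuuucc
let-7a-1-3p: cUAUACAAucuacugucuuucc
let-7c-2-3p: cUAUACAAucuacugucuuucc
let-7f-1-3p: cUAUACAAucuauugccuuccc
miR-27a-5p: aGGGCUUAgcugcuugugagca
miR-92a-1-5p: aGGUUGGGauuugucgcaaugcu

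Serum Con A recipients gave 347877, 276323 and 285968 miRNA reads, and RAW saline recipients 227745, 364910 and 240248. Of 941 miRNA names, 683 had reads in these 6 libraries, and the 229 that passed a filter on low counts were tested. Levels are CPM, counts scaled by library total, after TMM scaling, which lines up the bulk of miRNAs between libraries. Within a group, log2 CPM correlated between libraries at 0.987 to 0.994 over the miRNAs tested, and every pair of libraries differed by more than sampling noise. Defining markers of a blood-derived cell were present in part. miR-142a-3p, made by blood cells, was at 2158, 2308 and 2311 CPM in serum Con A recipients and at 2217, 2383 and 2432 CPM in RAW saline recipients. The scarcer miR-223-3p, typical of primary myeloid cells, was at 34.2, 33.1 and 19.7 CPM in the serum group, against 38.7, 22.1 and 8.75 CPM in the RAW saline group. Neither passed the test (log2 change -0.06 ± 0.07 SE, edgeR BH-adjusted p = 0.578, and log2 change 0.37 ± 0.45 SE, edgeR BH-adjusted p = 0.578).

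The comparison called 95 of 229 miRNAs (41.5%) at a Benjamini-Hochberg (BH) adjusted p below 0.05 in edgeR's quasi-likelihood test, which was 2-sided and fitted to all 12 cell libraries. Of these, 51 (22.3%) were higher and 44 (19.2%) lower in serum Con A recipients, and 16 and 11 of them differed by at least 2-fold. All 3 serum libraries lay above or all lay below all 3 RAW saline libraries for 110 of the 229 (48%), including 87 of the 95 calls. The mean of the PBS libraries lay between the means of the 2 groups for 45 of the 51 higher and 37 of the 44 lower miRNAs. Choosing miRNAs by the gap between these groups favours such a position, so no conclusion is drawn from it. Of the 51 higher, 16 were called against PBS in serum Con A recipients and 11 in RAW saline recipients. Of the 44 lower, the numbers were 24 and 15. Against PBS, whose libraries both contrasts share, the same fit called 49 of 229 miRNAs (21.4%) in serum Con A recipients and 32 (14%) in RAW saline recipients. Without scaling beyond library size, the median log2 change over the 229 moved up by 0.182, and 77 were higher and 27 lower, so small differences are read relative to the bulk of miRNAs. Leaving out each of the 6 libraries in turn kept 60 of the 95 calls every time, and 23 of the 27 of at least 2-fold.

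**Figure D1:**
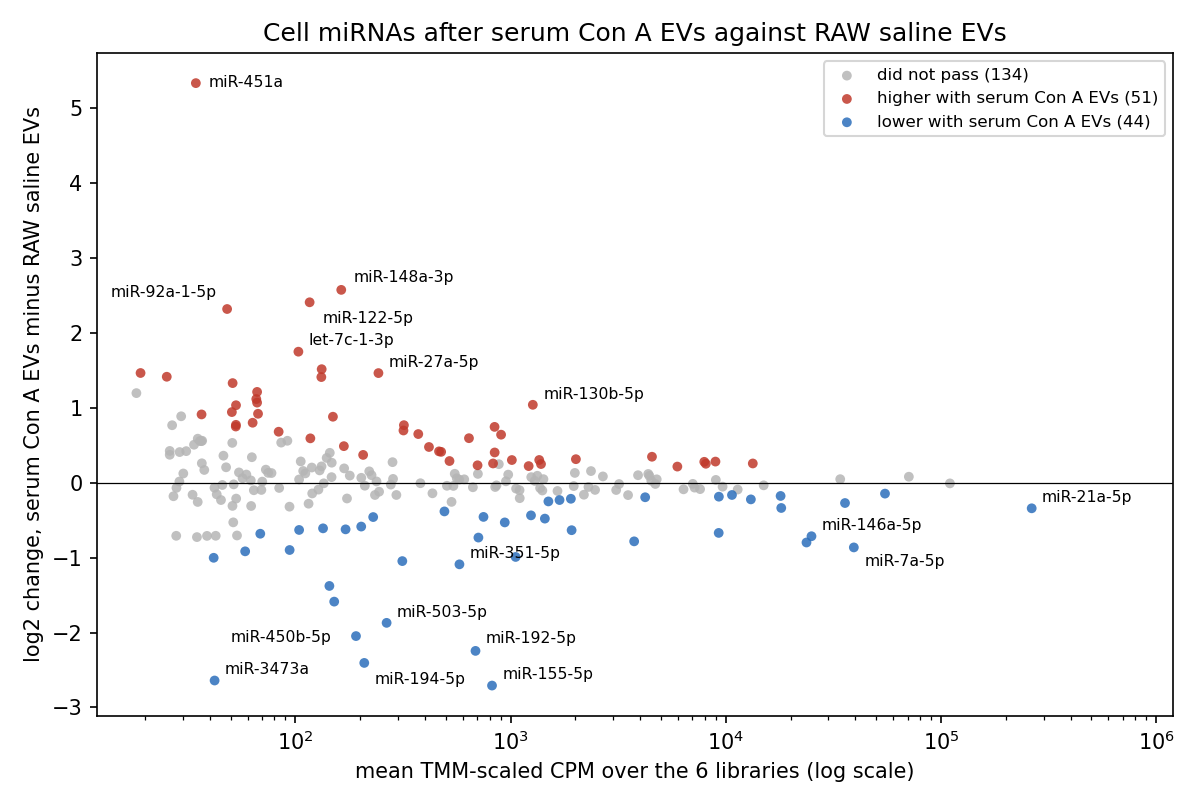
Log2 change (serum Con A EVs minus RAW saline EVs, vertical axis) against the mean TMM-scaled CPM of the 6 libraries (horizontal axis, log scale) for the 229 tested miRNAs, 1 point each. The 51 higher calls are red, the 44 lower calls blue, and the 134 that did not pass grey; miR-451a stands highest at 5.33 and miR-155-5p lowest at -2.71.

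The 3 largest rises were miR-451a, miR-148a-3p and miR-122-5p, all abundant in the serum EVs that these cells had received. miR-122-5p, the dominant miRNA of hepatocytes, was at 171, 169 and 249.8 CPM in serum Con A recipients and at 24.2, 33.1 and 52.5 CPM in RAW saline recipients. It was 5.30-fold higher (log2 change 2.41 ± 0.26 SE, edgeR BH-adjusted p = 2.53e-09), with no overlap between groups. miR-148a-3p, abundant in liver and in B cells, was at 218, 334 and 293 CPM in the serum group and 48.4, 52.5 and 35.0 CPM in the RAW saline group, again without overlap (log2 change 2.57 ± 0.25 SE, edgeR BH-adjusted p = 2.72e-10). miR-451a, which red cell precursors make through Argonaute 2 instead of Dicer, had 28, 18 and 21 reads in the serum libraries and 1, 0 and 0 in the RAW saline libraries. The ratio of its summed counts, each divided by the group's TMM-scaled library total, was 54.1, with an exact 95% interval of 9.39 to 2169 that covers counting error only (log2 change 5.33 ± 0.65 SE, edgeR BH-adjusted p = 3.78e-08). Without RAW saline replicate 2 the log2 change was 4.63. Without RAW saline replicate 1 it was 7.30, a fitted value that depends on the prior count, since the other RAW saline libraries held 0 reads.

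The same EVs held other miRNAs of liver and blood that were not higher in the cells. In the serum Con A EV library miR-148a-3p was at 426086 CPM and miR-122-5p at 392037 CPM, together 81.8% of its reads (Wilson 95% interval 81.7 to 81.9%), against 2.26% (2.18 to 2.35%) of the RAW saline EV library. The other EV libraries held these miRNAs too. RAW Con A EVs had 208038 CPM of miR-122-5p, 77074 CPM of miR-148a-3p and 534 CPM of miR-451a. Serum EVs of saline-treated mice had 99538, 120064 and 54704 CPM, in that order. Cells given RAW Con A EVs were at means of 71.5, 57.8 and 9.21 CPM, beside 36.6, 45.3 and 1.61 CPM in RAW saline recipients. With 1 library each, EVs were not tested. miR-192-5p, a liver and gut miRNA, was 56.2 (exact 95% interval 44.4 to 72.1) times as high in serum Con A EVs as in RAW saline EVs by CPM. In cells it was at 229, 245 and 237 CPM in serum Con A recipients, against 1084, 925 and 1404 CPM in RAW saline recipients, 4.74-fold lower (log2 change -2.24 ± 0.16 SE, edgeR BH-adjusted p = 1.21e-13). Its cluster partner miR-194-5p, at an EV ratio of 19.7 (exact 95% interval 10.9 to 39.7), was at 76.2, 56.2 and 59.2 CPM in the serum group and 339, 273 and 450.5 CPM in the RAW saline group (log2 change -2.41 ± 0.21 SE, edgeR BH-adjusted p = 2.61e-11). miR-22-3p, at an EV ratio of 29.0 (exact 95% interval 20.0 to 43.7), was at 615, 721 and 792 CPM in serum Con A recipients and 1375, 1389 and 1443 CPM in RAW saline recipients (log2 change -0.99 ± 0.10 SE, edgeR BH-adjusted p = 1.97e-10). For all 3 the groups did not overlap, beside 48% of all tested miRNAs, and every serum library was the lower. PBS cells, given no EVs, held these 3 at means of 935, 241 and 1150 CPM. Their means of miR-122-5p, miR-148a-3p and miR-451a were 18.8, 17.6 and 0 CPM. Against PBS, serum Con A recipients had log2 changes of -1.99 ± 0.16 SE for miR-192-5p, -1.91 ± 0.22 SE for miR-194-5p and -0.71 ± 0.10 SE for miR-22-3p.

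A set of 11 miRNAs reached 100 CPM in serum Con A EVs and exceeded their RAW saline EV level by 8 times or more. Of these, 7 were tested in cells, of which 3 rose (miR-122-5p, miR-148a-3p and miR-451a), 3 fell (miR-192-5p, miR-194-5p and miR-22-3p) and miR-223-3p did not pass. The other 4 were miR-486a-5p, miR-486b-5p, miR-203-3p and miR-6538. miR-486a-5p, a red cell miRNA, had 8, 6 and 3 reads in the serum Con A recipients and 0, 1 and 1 in the RAW saline recipients, too few to pass the filter. miR-486b-5p had 9, 5 and 5 reads in the serum Con A recipients and 0, 3 and 0 in the RAW saline recipients. In serum Con A EVs miR-486a-5p and miR-486b-5p had 3045 and 3036 reads. The counting may share reads between these names, so they are not independent members of the set. Of the 41 miRNAs with the opposite pattern, at least 100 CPM in RAW saline EVs and 8 times or more the level in serum Con A EVs, 38 were tested, of which 9 rose, 9 fell and 20 did not pass. Those counts lie near the 22.3% and 19.2% of all tested miRNAs. With the authors' divisors for EV libraries in place of read totals, the sets held 46 and 7 miRNAs. Over the 104 tested miRNAs with reads in both EV libraries, the log2 EV ratio and the log2 change in cells correlated at Pearson's r = 0.0599 and Spearman's rho = -0.119, or r = -0.392 without miR-122-5p, miR-148a-3p and miR-451a. The 3 miRNAs left out are those of the serum EV set that rose in cells, so their removal lowers r by construction. These correlations are across miRNAs, which are not independent, and the EV ratios share 2 libraries.

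**Figure D2:**
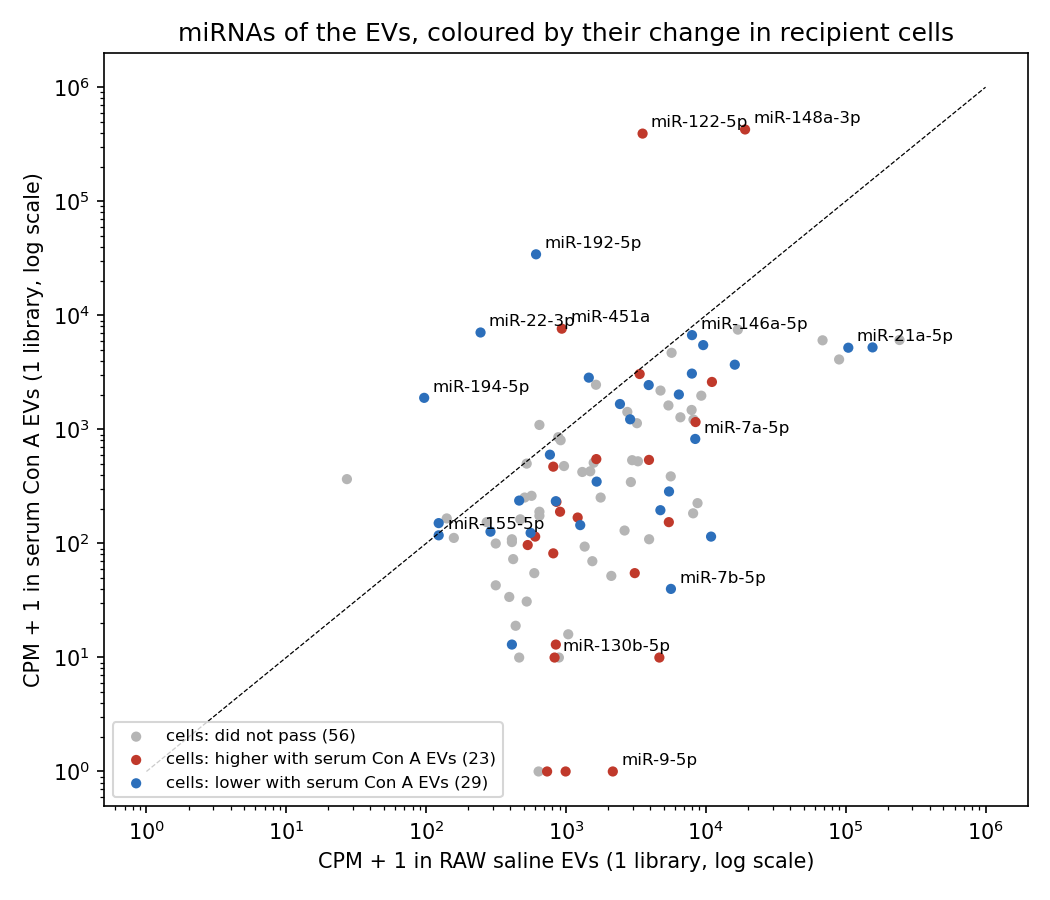
CPM + 1 of each tested miRNA with at least 50 reads over both EV libraries, in serum Con A EVs (vertical axis) and RAW saline EVs (horizontal axis), both on log scales, coloured by the change in recipient cells; the dashed line marks equal levels. Above the line lie both miRNAs higher in serum Con A recipients (miR-122-5p, miR-148a-3p, miR-451a) and miRNAs lower there (miR-192-5p, miR-194-5p, miR-22-3p).

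Markers of other cell types moved in both directions. The hepatocyte list held 6 miRNAs, of which 4 were tested. Of these 2 rose and 2 fell, beside 22.3% higher and 19.2% lower over all tested miRNAs. The summed level of the list was 694, 804 and 838 CPM in serum Con A recipients and 1496, 1284 and 1942 CPM in RAW saline recipients, and 2 members (miR-122-3p and miR-802-5p) had 0 reads. The 5 erythrocyte miRNAs summed to 131, 106 and 98.6 CPM in the serum group, against 4.84, 13.8 and 13.1 CPM in the RAW saline group. The part of RNA from other cells in these differences was not tested. Of the 2 endothelial and platelet miRNAs, miR-126a-3p rose (log2 change 0.59 ± 0.10 SE, edgeR BH-adjusted p = 5.86e-06) while its level in the EVs was 3054 CPM for serum Con A and 3363 CPM for RAW saline by read totals, a ratio of 0.908 that was 17.2 with the authors' divisors. The 4 muscle miRNAs were all too rare to test.

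**Figure D3:**
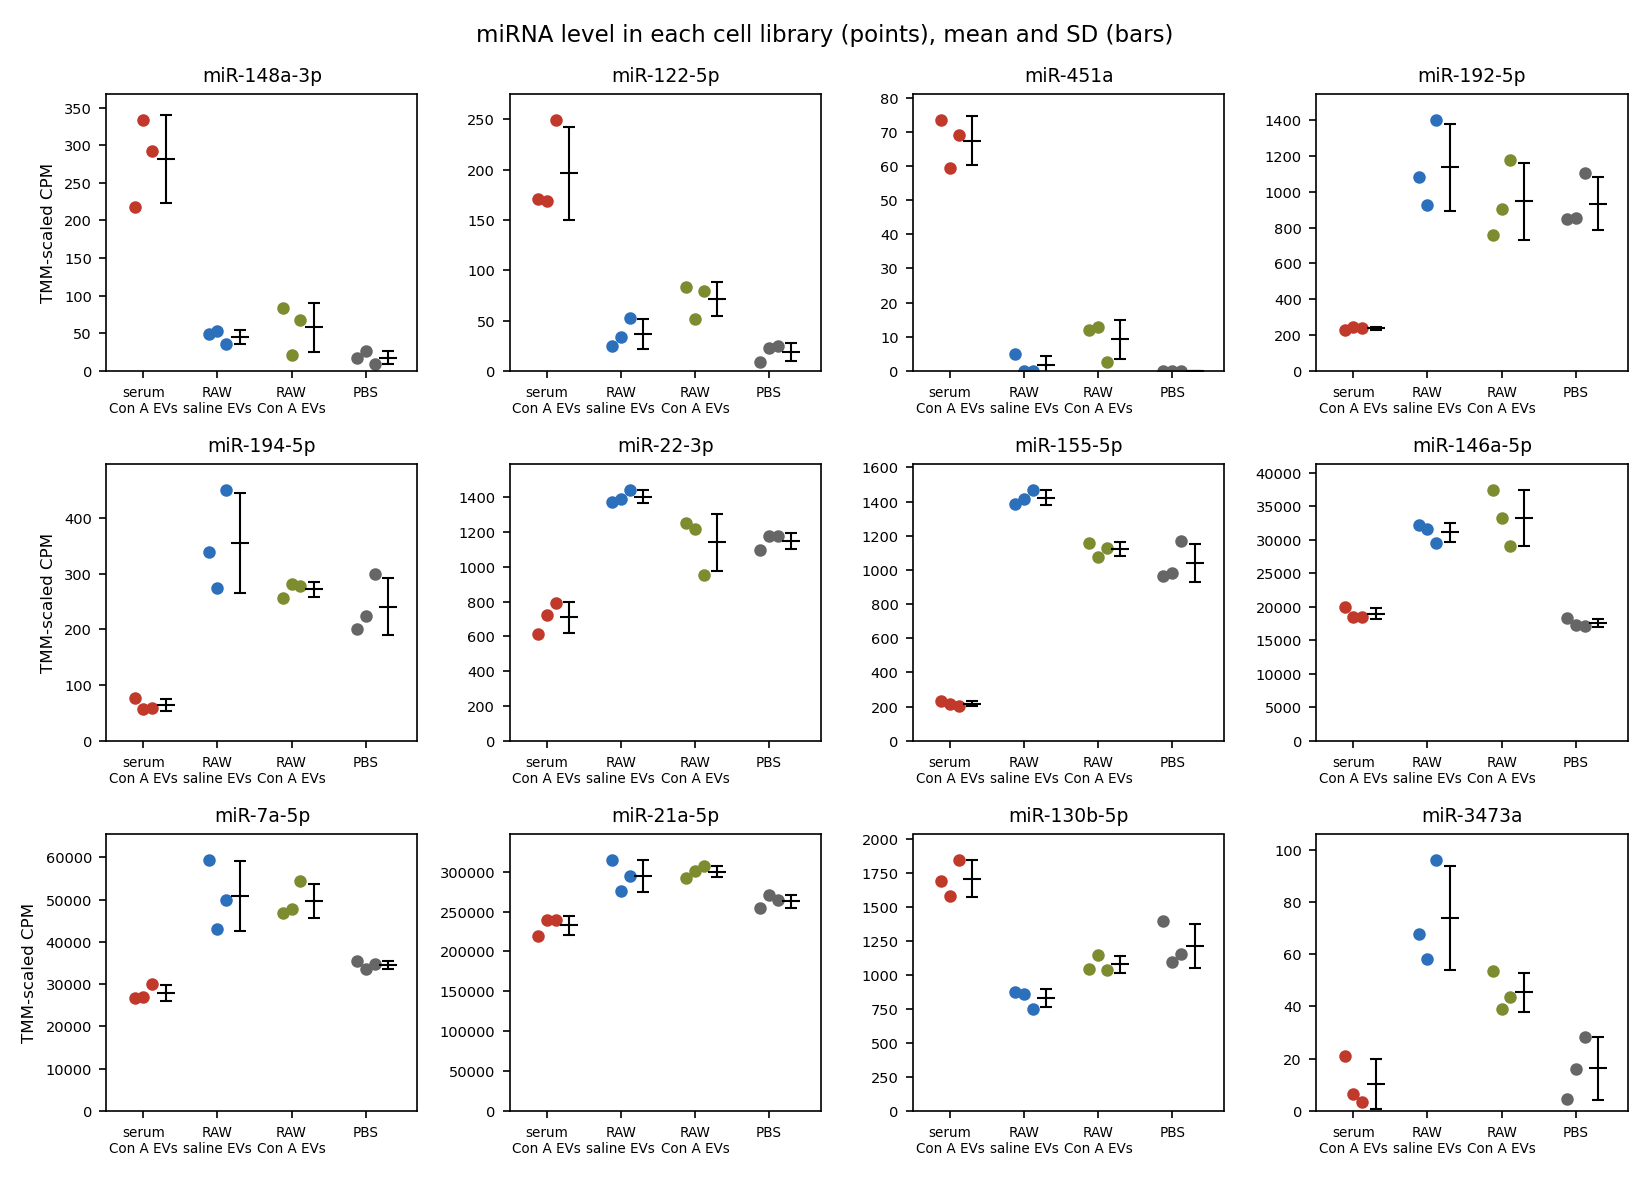
TMM-scaled CPM of 12 miRNAs in every cell library (linear vertical axes from 0), with points for the 3 libraries of each group and bars for their mean and SD. Serum Con A recipients, on the left of each panel, lie above all RAW saline recipients for miR-148a-3p, miR-122-5p, miR-451a and miR-130b-5p and below them for the other 8.

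The largest fall was that of miR-155-5p, made from an exon of the host transcript Mir155hg (hairpin Mir155 at chr16:84714140-84714204, plus strand, GRCm38.p6). It was at 231, 215 and 204 CPM in serum Con A recipients and at 1385, 1416 and 1469.7 CPM in RAW saline recipients. It was thus 6.53-fold lower, with the 3 serum libraries far below all others (log2 change -2.71 ± 0.10 SE, edgeR BH-adjusted p = 3.42e-21). In PBS cells it was at 966, 981 and 1167 CPM. Against PBS its log2 change was -2.26 ± 0.11 (SE, adjusted p = 2.54e-18) in serum Con A recipients and 0.45 ± 0.08 (SE, adjusted p = 0.0001) in RAW saline recipients. In the EVs it was scarce, at 117 CPM in serum Con A EVs and 122 CPM in RAW saline EVs by read totals, a ratio of 0.957 that was 18.1 with the authors' divisors.

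The opposite arm of that hairpin, miR-155-3p, was at 28.9, 52.9 and 42.7 CPM in the serum group and 72.6, 71.8 and 52.5 CPM in the RAW saline group, which overlapped in range and did not pass (log2 change -0.70 ± 0.31 SE, edgeR BH-adjusted p = 0.0678). Its PBS level was higher than both, at 147.98, 155 and 226 CPM. The hairpin, with both arms in capitals, is shown because its arms differed in this way.
Mir155: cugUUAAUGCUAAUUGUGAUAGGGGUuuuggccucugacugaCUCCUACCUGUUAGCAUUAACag

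Among 12 miRNAs listed for inflammatory responses of macrophages, 8 were tested. Of these 4 fell, 1 rose and 3 did not pass, beside 19.2% lower and 22.3% higher over all tested miRNAs. Their median log2 change was -0.27 beside 0.04 over all tested. miR-146a-5p, which targets the adaptors Traf6 and Irak1, was at 19894, 18526 and 18407 CPM in serum Con A recipients and 32192, 31569.6 and 29508 CPM in RAW saline recipients (log2 change -0.71 ± 0.07 SE, edgeR BH-adjusted p = 1.11e-10). The PBS level of miR-146a-5p was near that of the serum group, at 18280.3, 17270.5 and 17145 CPM, and its log2 change against PBS was 0.11 ± 0.07 (SE, adjusted p = 0.27) in serum Con A recipients and 0.82 ± 0.07 (SE, adjusted p = 2.4e-11) in RAW saline recipients. miR-21a-5p, an anti-apoptotic miRNA and the most abundant of all in these cells, took 219194, 239632 and 239510.0 CPM in serum Con A recipients and 315252, 275413 and 294437 CPM in RAW saline recipients (log2 change -0.34 ± 0.06 SE, edgeR BH-adjusted p = 1.27e-05). miR-125b-5p fell by less (log2 change -0.19 ± 0.06 SE, edgeR BH-adjusted p = 0.0127), and lost its call without serum Con A replicate 1 (adjusted p = 0.0507) and with library size alone. miR-9-5p was the member that rose, at 5119.9, 4967 and 5164 CPM in the serum group, against 4119.6, 4081 and 3792 CPM in the RAW saline group (log2 change 0.35 ± 0.06 SE, edgeR BH-adjusted p = 1.91e-05). It had 0 reads in serum Con A EVs, which allows up to 8.97 CPM, and 2160.4 CPM in RAW saline EVs.

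miR-7a-5p and miR-7b-5p, near-identical miRNAs among the most abundant in these cells, both fell. miR-7a-5p was at 26714, 26959 and 30039 CPM in serum Con A recipients, against 59447, 43080.3 and 49918 CPM in RAW saline recipients (log2 change -0.86 ± 0.08 SE, edgeR BH-adjusted p = 5.02e-11). miR-7b-5p followed it, at 16514, 17196 and 18219 CPM in the serum group and 34777, 26241 and 29359 CPM in the RAW saline group (log2 change -0.80 ± 0.07 SE, edgeR BH-adjusted p = 6.36e-11). The counting may share reads between them, so the values are not independent. PBS cells lay between, with 35425, 33576 and 34649 CPM of miR-7a-5p. Both were also lower in serum Con A EVs than in RAW saline EVs, at ratios of 0.098 (exact 95% interval 0.0854 to 0.112) and 0.00691 (exact 95% interval 0.00366 to 0.0119), but with the authors' divisors the ratio of miR-7a-5p was 1.85. The passenger miR-7a-1-3p did not pass (log2 change 0.34 ± 0.25 SE, edgeR BH-adjusted p = 0.361).

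A cluster of miRNA genes on chromosome X was lower in nearly all its tested members, from miR-322 at its 5′ end to miR-450b at its 3′ end. Its members miR-322 and miR-503 are relatives of miR-16, known in other cells to slow the cell cycle. On GRCm38.p6, 6 of its genes lie within 6353 bp of the minus strand, at chrX:53047997-53054349. Of 11 listed members 8 were tested, of which 7 fell, 0 rose and miR-503-3p did not pass (log2 change -0.31 ± 0.32 SE, edgeR BH-adjusted p = 0.508). Over all tested miRNAs 19.2% were lower, and the median log2 change was -1.23 for the cluster beside 0.04 over all. The summed level of the 11 was 1078, 992 and 1085 CPM in serum Con A recipients, 2449.5, 2410.4 and 2904 CPM in RAW saline recipients and 1763, 2179.9 and 2302 CPM in PBS cells.

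The members of the cluster differed in how far they fell. miR-450b-5p was at 76.2, 62.8 and 82.2 CPM in serum Con A recipients and 266, 284 and 376 CPM in RAW saline recipients (log2 change -2.05 ± 0.21 SE, edgeR BH-adjusted p = 7.59e-10). miR-503-5p was at 92.0, 126 and 122 CPM in the serum group and 358, 331 and 564 CPM in the RAW saline group (log2 change -1.87 ± 0.19 SE, edgeR BH-adjusted p = 6.08e-10). The log2 changes of the others were -1.59 for miR-450a-5p, -1.38 for miR-542-3p, -1.09 for miR-351-5p and -1.05 for miR-322-3p, and differences between members were not tested. These 6 did not overlap between groups, beside 48% of all tested miRNAs. They kept their calls without any 1 of the 6 libraries, as did 60 of all 95 calls. miR-322-5p fell least, at 86.7, 86.0 and 69.0 CPM in the serum group and 155, 119 and 109 CPM in the RAW saline group (log2 change -0.63 ± 0.22 SE, edgeR BH-adjusted p = 0.0194), and lost its call without serum Con A replicate 3 or RAW saline replicate 1 (largest adjusted p = 0.0713), and also with library size alone and with DESeq2. miR-16-5p, with the same seed but another locus, did not pass (log2 change -0.11 ± 0.08 SE, edgeR BH-adjusted p = 0.271).

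A second chromosome X pair, miR-221 and miR-222, which promote proliferation by targeting the cell cycle inhibitor p27, also fell in its abundant arms: of 4 tested members miR-221-3p and miR-222-3p fell and their 5p arms did not pass. Over all tested miRNAs 19.2% were lower. The genes lie at chrX:19146294-19146388 and chrX:19146893-19146971 on the minus strand (GRCm38.p6). miR-221-3p was at 6957, 6882 and 7639 CPM in serum Con A recipients and 10882, 11659.8 and 11609 CPM in RAW saline recipients (log2 change -0.67 ± 0.06 SE, edgeR BH-adjusted p = 7.69e-11). miR-222-3p was at 2605, 2917 and 2748 CPM in the serum group and 5107, 4506 and 4632 CPM in the RAW saline group (log2 change -0.78 ± 0.08 SE, edgeR BH-adjusted p = 1.07e-09). The groups did not overlap for either, and PBS cells were close to the RAW saline recipients, with 10450.2, 11181 and 10397 CPM of miR-221-3p. The 5p arms had log2 changes of -0.04 for miR-221-5p and 0.11 for miR-222-5p.

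**Figure D4:**
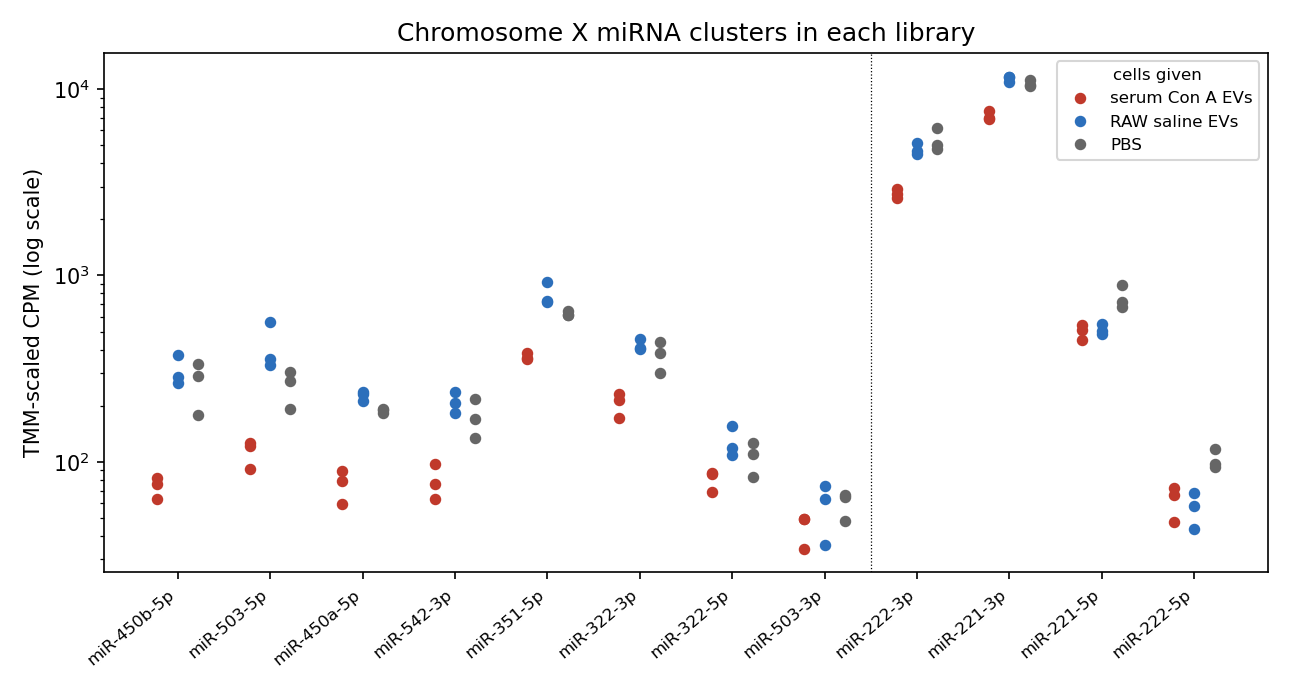
TMM-scaled CPM (vertical axis, log scale) of the 8 tested members of the miR-322 to miR-450b cluster and, right of the dotted line, of miR-221 and miR-222, in serum Con A recipients (red), RAW saline recipients (blue) and PBS cells (grey), 1 point a library. The red points lie below the blue ones for every miRNA except miR-503-3p, miR-221-5p and miR-222-5p, where they overlap.

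In the miR-23/27/24 clusters abundant 3p arms fell while passengers rose or did not pass. Of 9 tested members of the list 5 fell (miR-23a-3p, miR-23b-3p, miR-27a-3p, miR-27b-3p and miR-24-3p), 1 rose (miR-27a-5p) and 3 did not pass, beside 19.2% lower and 22.3% higher over all tested miRNAs. The passenger miR-23b-5p, which was not in the list, rose as well and is described with other passengers. miR-23a-3p had the largest fall, at 1514, 1511 and 1496 CPM in serum Con A recipients, against 2145, 2333 and 2533 CPM in RAW saline recipients (log2 change -0.63 ± 0.08 SE, edgeR BH-adjusted p = 1.21e-07). In PBS cells it was at 1454, 1752 and 2022 CPM. Against PBS it passed in RAW saline recipients (log2 change 0.41 ± 0.08 SE, edgeR BH-adjusted p = 0.000386). It did not pass in serum Con A recipients (log2 change -0.22 ± 0.09 SE, edgeR BH-adjusted p = 0.0615). By contrast, miR-23b-3p and miR-27b-3p passed against PBS only in serum Con A recipients, as lower. miR-27a-5p, the less abundant arm of its hairpin, was at 371, 374 and 332 CPM in the serum group and 111, 141 and 131 CPM in the RAW saline group (log2 change 1.46 ± 0.15 SE, edgeR BH-adjusted p = 5.26e-10). Its PBS level was near that of the serum group, at 366, 337 and 321 CPM. Against PBS its log2 change was 0.08 ± 0.12 (SE, edgeR BH-adjusted p = 0.688) in serum Con A recipients. In RAW saline recipients it was -1.38 ± 0.15 (SE, edgeR BH-adjusted p = 2.34e-08). The 3p arm of that hairpin was at 8313, 8559 and 9193 CPM in the serum group and 10234, 9769 and 9667 CPM in the RAW saline group (log2 change -0.19 ± 0.06 SE, edgeR BH-adjusted p = 0.00976). It lost its call without serum Con A replicate 1 (adjusted p = 0.0623), and it differs from miR-27b-3p at 1 position, so reads may be shared. With library size alone it turned marginally positive and lost its call, and miR-27b-3p and miR-24-3p lost theirs too, while miR-23a-3p and miR-23b-3p kept theirs. Both arms of the hairpin, in capitals, are shown because they passed the test in opposite directions under TMM scaling.
Mir27a: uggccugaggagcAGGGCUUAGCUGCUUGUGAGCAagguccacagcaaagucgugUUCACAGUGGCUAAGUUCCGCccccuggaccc

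The let-7 family, which represses growth and cell cycle genes, had called guides that were lower and called passengers that were higher, and the difference between arms was not tested. Of its 9 tested guides 2 fell, a share near the 19.2% of all tested miRNAs, namely let-7c-5p (log2 change -0.18 ± 0.06 SE, edgeR BH-adjusted p = 0.0126) and let-7f-5p (log2 change -0.15 ± 0.06 SE, edgeR BH-adjusted p = 0.0355), and 7 did not pass. Both of these calls were lost, and their direction turned, when only library size was used for scaling, and both were lost without serum Con A replicate 3 or RAW saline replicate 3, let-7f-5p also without serum Con A replicate 2. let-7i-5p, at 73955, 69460.1 and 75165 CPM in the serum group and 69714, 66392 and 70761 CPM in the RAW saline group, did not pass (log2 change 0.08 ± 0.05 SE, edgeR BH-adjusted p = 0.271) except, as higher, with library size alone. It took 6069.7 CPM of the serum Con A EVs and 242571 CPM of the RAW saline EVs. Of 12 listed let-7 passengers 6 were tested, of which 4 rose and 2 did not pass, beside 22.3% higher over all tested miRNAs. let-7c-1-3p, from an intron of Mir99ahg (chr16:77599657-77599750, plus strand, GRCm38.p6), was at 171, 132 and 177 CPM in serum Con A recipients and 38.7, 52.5 and 48.1 CPM in RAW saline recipients (log2 change 1.75 ± 0.23 SE, edgeR BH-adjusted p = 1.05e-07). Its PBS level was near that of the serum group, at 169.7, 207 and 195 CPM. The other 3 share a seed and rose by 0.70 to 0.94 on the log2 scale: let-7a-1-3p at 431, 354 and 417 CPM in the serum group and 271, 229 and 214 CPM in the RAW saline group, its indistinguishable twin let-7c-2-3p, and let-7f-1-3p, whose call was lost without serum Con A replicate 1 (adjusted p = 0.0623).

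A passenger arm also led the oncogenic miR-17-92 cluster and its paralogues, which promote proliferation. Of 13 tested members 7 rose, 0 fell and 6 did not pass, beside 22.3% higher and 19.2% lower over all tested miRNAs. Their median log2 change was 0.25 beside 0.04 over all tested. miR-92a-1-5p rose most, to 103, 69.4 and 72.3 CPM in serum Con A recipients, against 9.68, 22.1 and 13.1 CPM in RAW saline recipients, with no overlap (log2 change 2.32 ± 0.35 SE, edgeR BH-adjusted p = 1.26e-06). Its read counts were small, at 39, 21 and 22 in the serum group and 2, 8 and 3 in the RAW saline group. The guide of the same hairpin, miR-92a-3p, did not pass (log2 change -0.02 ± 0.09 SE, edgeR BH-adjusted p = 0.901). The abundant guides miR-17-5p and miR-20a-5p rose slightly: miR-20a-5p was at 14503, 14624 and 14482 CPM in the serum group and 12441, 12182 and 11885 CPM in the RAW saline group (log2 change 0.26 ± 0.05 SE, edgeR BH-adjusted p = 0.000205).

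In most pairs of hairpin arms that were both tested, the less abundant arm lay above the more abundant arm in its change. An arm is called minor here where its mean CPM over the 12 cell libraries was below that of its partner, a definition made after the values had been seen and one that small RNA ligation can bias. Of 72 tested minor arms 21 rose (29.2%) and 3 fell (4.17%), while of 131 major arms 25 rose (19.1%) and 32 fell (24.4%). The minor arms' share of rises is close to the 22.3% of all tested miRNAs and depended on the setting: DESeq2 called 10 minor arms higher, and leaving out RAW saline replicate 3 left 12. Under 500 CPM, where levels are more alike, 20 of 63 minor arms rose and 3 fell, against 10 and 10 of 54 major arms. In 71 pairs with both arms tested the minor arm's log2 change was above that of the major arm in 52, with a median difference of 0.23. Some major arms recur as partner, among them let-7c-5p, miR-16-5p, miR-181a-5p and miR-24-3p, so the pairs are not independent. Both arms passed the test in 12 pairs, in the same direction in 7 and in opposite directions in 5 (let-7c-1, let-7c-2, let-7f-1, miR-23b and miR-27a), of which miR-23b alone stayed opposite with library size as the sole scaling. The let-7c-1 and let-7c-2 pairs share the value of let-7c-5p. Reads of let-7c-2-3p cannot be told from those of let-7a-1-3p, whose guide let-7a-5p did not pass. Minor arms took 1.52, 1.53 and 1.47% of the miRNA reads in serum Con A recipients, 1.11, 1.20 and 1.17% in RAW saline recipients and 1.45, 1.40 and 1.38% in PBS cells. The serum and RAW saline groups did not overlap in this share, which was not tested.

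**Figure D5:**
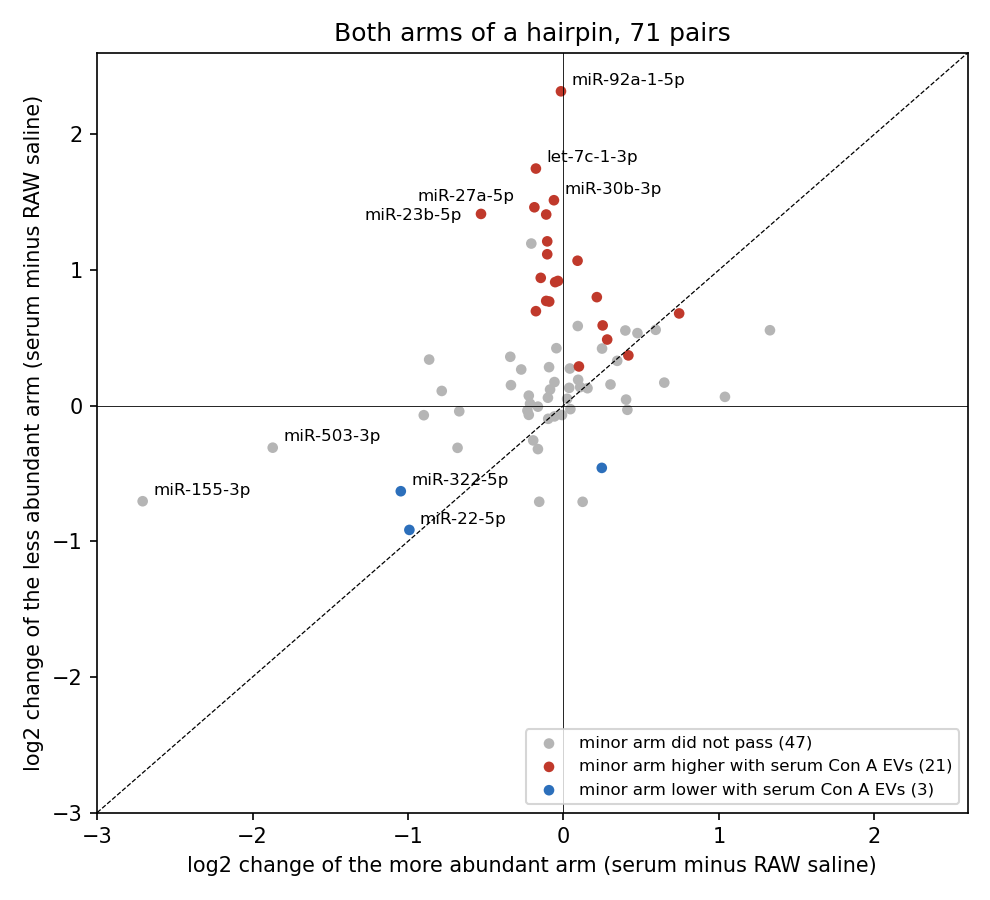
Log2 change (serum Con A EVs minus RAW saline EVs) of the less abundant arm (vertical axis) against the more abundant arm (horizontal axis) in 71 pairs of hairpin arms, with the line of equal change dashed. In 52 pairs the point lies above the line. Red marks the 21 whose minor arm passed the test as higher, blue the 3 that passed as lower.

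Further passengers among the largest rises were miR-30b-3p, miR-16-1-3p, miR-23b-5p and miR-181a-1-3p. miR-30b-3p was at 231, 179 and 177 CPM in serum Con A recipients and 62.9, 66.3 and 78.7 CPM in RAW saline recipients (log2 change 1.51 ± 0.21 SE, edgeR BH-adjusted p = 3.28e-07), while its guide miR-30b-5p did not pass (log2 change -0.06 ± 0.09 SE, edgeR BH-adjusted p = 0.664). miR-16-1-3p was at 210.3, 225 and 135 CPM in the serum group and 72.6, 58.0 and 91.9 CPM in the RAW saline group (log2 change 1.41 ± 0.22 SE, edgeR BH-adjusted p = 3.4e-06). The groups did not overlap for either. Against PBS the log2 change of miR-30b-3p was 0.37 ± 0.17 (SE, edgeR BH-adjusted p = 0.133) in serum Con A recipients. In RAW saline recipients it was -1.15 ± 0.23 (SE, edgeR BH-adjusted p = 0.000332). That of miR-16-1-3p was 0.27 ± 0.18 (SE, edgeR BH-adjusted p = 0.312) and -1.14 ± 0.24 (SE, edgeR BH-adjusted p = 0.000496). Neither miR-23b-5p nor miR-181a-1-3p passed against PBS in either group. miR-181a-1-3p (log2 change 1.21 ± 0.28 SE, edgeR BH-adjusted p = 0.000566) kept its call in every repeat without a library. miR-23b-5p (log2 change 1.41 ± 0.43 SE, edgeR BH-adjusted p = 0.00814) lost it without RAW saline replicate 3 (adjusted p = 0.0644). miR-193a-5p rested on few reads, 6, 10 and 12 in the serum group and 2, 6 and 0 in the RAW saline group (log2 change 1.46 ± 0.57 SE, edgeR BH-adjusted p = 0.0365), and lost its call without serum Con A replicate 2 or 3 or RAW saline replicate 1 or 3 (largest adjusted p = 0.161). Without RAW saline replicate 2 its log2 change was 2.52.

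The miR-130b and miR-301b genes lie side by side in an intron of 2610318N02Rik on chromosome 16 (chr16:17124061-17124496, minus strand, GRCm38.p6), and the 5p arm of each, the more abundant one in these cells, rose. miR-130b-5p was at 1695, 1581 and 1851 CPM in serum Con A recipients and 876, 859 and 752 CPM in RAW saline recipients (log2 change 1.04 ± 0.09 SE, edgeR BH-adjusted p = 2.61e-11). miR-301b-5p was at 57.8, 82.7 and 82.2 CPM in the serum group and 29.0, 33.1 and 21.9 CPM in the RAW saline group (log2 change 1.33 ± 0.32 SE, edgeR BH-adjusted p = 0.00109). The groups did not overlap for either miRNA. Their 3p arms, which carry the family seed, did not pass (log2 change 0.06 ± 0.16 SE, edgeR BH-adjusted p = 0.796, and log2 change 0.56 ± 0.36 SE, edgeR BH-adjusted p = 0.249). In the EVs miR-130b-5p was at 8.97 CPM in serum Con A EVs and 828 CPM in RAW saline EVs, so it was lower in the EVs of the group whose cells had more of it.

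Of 9 listed miRNAs with late catalogue numbers, whose processing is less well established, 4 were tested and 3 fell, beside 19.2% lower over all tested miRNAs, with a median log2 change of -0.56 beside 0.04. miR-3473a was at 21.0, 6.61 and 3.29 CPM in serum Con A recipients and 67.8, 58.0 and 96.2 CPM in RAW saline recipients (log2 change -2.64 ± 0.44 SE, edgeR BH-adjusted p = 6.95e-06). It had only 8, 2 and 1 reads in the serum libraries. Without serum Con A replicate 1 its log2 change was -3.74. Its PBS level was 4.35, 16.2 and 28.3 CPM, and its log2 change against PBS was -0.63 ± 0.60 (SE, adjusted p = 0.516) in serum Con A recipients and 2.01 ± 0.41 (SE, adjusted p = 0.000431) in RAW saline recipients. miR-5099 fell as well (log2 change -0.73 ± 0.11 SE, edgeR BH-adjusted p = 7.43e-07), as did miR-3535 (log2 change -0.38 ± 0.11 SE, edgeR BH-adjusted p = 0.00728), whose call was lost with library size alone. Against PBS neither passed in serum Con A recipients (edgeR BH-adjusted p = 0.59 and 0.271). In RAW saline recipients both were higher than in PBS cells. Their log2 changes there were 0.63 ± 0.11 (SE, edgeR BH-adjusted p = 5.18e-05) and 0.58 ± 0.12 (SE, edgeR BH-adjusted p = 0.000469). miR-690, also among the 12 largest falls, was at 26.3, 29.8 and 26.3 CPM in the serum group and 48.4, 49.7 and 70.0 CPM in the RAW saline group (log2 change -1.002 ± 0.33 SE, edgeR BH-adjusted p = 0.0133), a call lost without RAW saline replicate 3 (adjusted p = 0.0777).

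Fewer members passed in other families. Of 10 tested members of the miR-30 family 2 rose, 1 fell and 7 did not pass, against 22.3% higher and 19.2% lower over all tested miRNAs, the fall being that of miR-30a-5p, which turned positive with library size alone. None of 3 tested miR-29 miRNAs passed, with log2 changes of -0.12 to 0.02. In the miR-99/100 and miR-125 families 1 of 7 rose and 1 fell, and miR-99a-5p, among the most abundant miRNAs of these cells, was at 110822, 102914 and 115242 CPM in serum Con A recipients and 120094, 102641 and 108444 CPM in RAW saline recipients (log2 change -0.01 ± 0.07 SE, edgeR BH-adjusted p = 0.928). With library size alone it passed as higher. Of 6 tested miRNAs listed for the miR-15/16 family 1 rose, miR-16-1-3p. miR-16-2-3p, a passenger outside that list, rose too (log2 change 0.77 ± 0.30 SE, edgeR BH-adjusted p = 0.0365), a call lost in 4 of 6 repeats without a library (largest adjusted p = 0.180). Of the listed markers of stromal cells 2 were tested and rose, miR-199a-3p (log2 change 0.42 ± 0.11 SE, edgeR BH-adjusted p = 0.00271) and miR-199a-5p (log2 change 0.37 ± 0.15 SE, edgeR BH-adjusted p = 0.0484), the first lost without serum Con A replicate 1 and the second in all 6 repeats without a library. Of 3 tested lymphocyte miRNAs 1 rose, miR-181b-5p (log2 change 0.22 ± 0.08 SE, edgeR BH-adjusted p = 0.0329), in groups that overlapped and with the call lost in 4 of 6 repeats without a library (largest adjusted p = 0.304) and under 4 other settings. Neither of 2 tested epithelial miRNAs passed.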

How the data were processed

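Small RNA libraries (NEBNext small RNA kit, MiSeq, single reads of 51 bp, per the labels' protocols) of 12 cell and 4 EV samples were analysed. The authors deposited raw counts, whole reads per mouse miRNA name, and normalized signal values, which were used only to recover the authors' scaling factors and divisors as alternatives. The submitters' processing notes name edgeR without a version. As to aligner, annotation and build, these were not given in the sources used here. No column was left without a sample (0).

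Raw counts of the 12 cell libraries were filtered (filterByExpr, 229 miRNAs kept), scaled by TMM and fitted with edgeR 4.0.16 in R 4.3.3, with 1 mean per group. The contrast was serum Con A EVs minus RAW saline EVs, 2-sided, with Benjamini-Hochberg adjustment over 229 miRNAs at 0.05. SE is the log2 change divided by the root of F. The procedure was tested on simulated data. EV libraries were compared by CPM of miRNA reads, for miRNAs whose reads over both came to 50 or more. Ratios have exact 95% intervals from Poisson counts, and shares have Wilson intervals. Intervals and the upper limit of 3 reads for a count of 0 cover counting error only, since reads carry no molecular identifiers. Cell libraries held 174510 to 403332 reads, and the serum Con A and RAW saline EV libraries 334285 and 114791.

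Named miRNAs were the 12 largest rises and 12 largest falls among calls averaging 10 CPM or more, the 4 members of lowest p in each list, a panel of macrophage and tissue miRNAs, the other arm of any of these, and the 5 most abundant miRNAs of each EV library. The remaining names were chosen after their values were seen. The comparison, the lists and the panel were chosen with earlier results of these data known, and lists are described by counts and medians only. Sequences and hairpin positions are from RefSeq tables of GRCm38.p6, to which 207 of 229 tested names matched. Gene context is from GENCODE. Alternatives were other scalings and filters, a fit to 6 libraries, DESeq2 1.42.0, limma 3.58.1, a replicate block and leaving out each library.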

Additional observations from a re-analysis of the deposited data

How the results depend on the processing

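The numbers of higher and lower miRNAs, 51 and 44, were 77 and 27 with library size alone and 33 and 42 with DESeq2. Other scalings, filters, limma and the fit to 6 libraries gave 41 to 53 higher and 42 to 53 lower. Leaving out 1 library gave 38 to 44 higher and 34 to 48 lower, and no call shared with another setting changed sign. Minor arms called higher were 13 without a filter, 10 with DESeq2 and 12 to 18 without 1 library. With library size alone, which moves changes up by 0.182 at the median, the log2 change turned to 0.0110 for let-7c-5p, 0.0447 for let-7f-5p, 0.0247 for miR-30a-5p, 0.183 for miR-99a-5p, 0.00225 for miR-27a-3p and 0.154 for miR-30d-5p. The labels do not say whether replicate numbers pair the libraries. Deviations of same-numbered libraries from their group means correlated at -0.180, 0.0261 and -0.167, and not every library correlated best with its own number. With 3 libraries a group, such values cannot exclude pairing. A replicate block gave 48 higher and 47 lower. DESeq2 shared 74 of the 95 calls. Among calls named in the text, it lost the falls of miR-690 and miR-322-5p. The rises lost were those of miR-181b-5p, miR-199a-5p, miR-10a-3p, miR-339-3p, miR-16-2-3p, let-7f-1-3p, miR-23b-5p and miR-193a-5p. It also lost miR-99b-3p, miR-30d-3p and miR-17-3p, which are counted as rises in the lists. Of the 95 calls, 55 were kept in every fit.

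The EV counts rest on scaling. The 11 miRNAs at least 8 times higher in serum Con A EVs became 46 with the authors' divisors (2 for serum Con A and 13 for RAW saline, whose meaning is not stated). The 41 at least 8 times higher in RAW saline EVs became 69 at 20 reads or more, 23 at 200 or more, 21 with TMM and 7 with the authors' divisors, under which the EV ratio of miR-7a-5p was 1.85. Depth limits miRNAs at 0 reads to below 8.22 to 13.2 CPM in a cell library of these groups.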

Other observations

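Several called miRNAs outside the lists, chosen after their values were seen, also differed between the groups. Of 5 tested miR-378 miRNAs, whose best-known member lies in an intron of the mitochondrial biogenesis regulator Ppargc1b, 4 were lower in serum Con A recipients and miR-378a-5p did not pass (log2 change 0.15 ± 0.16 SE, edgeR BH-adjusted p = 0.522). The share of all tested miRNAs that were lower was 19.2%. miR-378a-3p was at 16553, 16747 and 14699 CPM in the serum group and 19456, 21293 and 19876 CPM in the RAW saline group (log2 change -0.34 ± 0.06 SE, edgeR BH-adjusted p = 2.39e-05), a call lost with library size alone, and miR-378b, miR-378c and miR-378d had log2 changes of -0.59, -0.46 and -0.48. Members of the family differ by few bases, so reads may be shared. Both arms of miR-10a, from a Hox gene cluster, were higher: miR-10a-5p was at 10321, 10169 and 9009 CPM in serum Con A recipients and 7450.2, 8648 and 8132 CPM in RAW saline recipients (log2 change 0.28 ± 0.06 SE, edgeR BH-adjusted p = 0.000606), while miR-10a-3p (log2 change 0.49 ± 0.17 SE, edgeR BH-adjusted p = 0.0199) lost its call in 4 of 6 repeats without a library (largest adjusted p = 0.129). Both arms of miR-339 were higher too, miR-339-5p at 1015, 1131 and 1035 CPM in the serum group and 547, 668 and 660.5 CPM in the RAW saline group (log2 change 0.74 ± 0.09 SE, edgeR BH-adjusted p = 2.22e-08), while miR-339-3p (log2 change 0.68 ± 0.23 SE, edgeR BH-adjusted p = 0.0182) lost its call in 3 of 6 repeats (largest adjusted p = 0.114). Both arms of miR-22 were lower, but miR-22-5p (log2 change -0.92 ± 0.31 SE, edgeR BH-adjusted p = 0.0167) lost its call without serum Con A replicate 1, RAW saline replicate 1 or RAW saline replicate 3 (largest adjusted p = 0.104).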
